A study of Mus musculus with 12 samples.

Results

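LY6D- SCA1int cells are mouse prostate cells that lack surface LY6D and carry SCA1 at an intermediate level. Their 2 libraries were set against the mean of the LY6D- SCA1high and LY6D- SCA1low populations, which have 2 libraries each, to ask which genes peak or dip at the middle SCA1 level. The 6 libraries were chosen by their population label from the 12 of the series. The other 6 come from LY6D+ cells sorted at the same 3 SCA1 levels, and the same contrast was run in them. All libraries come from the prostate of wild-type C57BL/6 mice aged 6 to 8 weeks, and no group carried a transgene or had a treatment. The submitters describe the cells as luminal, sorted after removal of cells with CD31, CD45 or Ter119, the surface proteins of endothelium, leukocytes and red cells. The labels name the sort gates but no gate for basal cells, and they do not say whether the replicates are separate animals or pools. The p-values below therefore measure the spread between these libraries.

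The prostate epithelium has an inner layer of luminal cells, which make the secreted proteins of the gland, and an outer layer of basal cells, which sit on the basement membrane and express keratins 5 and 14. SCA1, encoded by Ly6a, and LY6D are small lipid-anchored surface proteins of the same family that are used to sort epithelial subsets. In the mouse prostate, high SCA1 is known from basal, stromal and proximal ductal cells, and the androgen-driven secretory genes mark distal luminal cells. ACKR4 is an atypical chemokine receptor, which binds chemokines and takes them into the cell without the usual G-protein signal.

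RNA was measured as 3′ tags, so that a count is nearly independent of transcript length, and levels are given in CPM, the count of a gene relative to the TMM-scaled total of its library. Totals ran from 8436185 to 20022077 counts per library, and 7512 to 12202 genes had at least 10 counts. The LY6D- SCA1int libraries held 19842647 and 11465798 counts. Features of the ribosomal RNA repeat took 9.51% and 12.5% of the counts in LY6D- SCA1high, 12.5% and 15.5% in SCA1int and 22% and 20% in SCA1low, a share that moved with the SCA1 level. With these features removed, the test against the mean of both ends called the same 18 genes. Replicates were far apart for many genes, with a common dispersion of 1.65, a biological coefficient of variation of 1.28. LY6D- SCA1low replicate 2 stood apart in 1 respect. A set of 11 genes high in SCA1high and near absent in SCA1int stood there at a median 15.8% of their SCA1high level, against 4.78% in replicate 1. LY6D+ SCA1high replicate 2 is the shallowest library. Without both of these libraries each of the 18 genes called below was still called, among 53 calls in all.

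The sort labels were read against the genes of the sort proteins. Ly6a stood at 593 and 477 CPM in the LY6D- SCA1high libraries, at 102 and 148 in SCA1int and at 24.8 and 68.8 in SCA1low. SCA1int lay between the other LY6D- populations in both libraries. Ly6d stood at 1.44 and 2.23 CPM in LY6D- SCA1int and at 134 and 64.4 in LY6D+ SCA1int, so its RNA was low in the libraries labelled LY6D-. Epcam, a general epithelial marker, stood at 119.6 and 101 CPM in LY6D- SCA1int, 80.4 and 60.8 in SCA1high and 149.8 and 38.6 in SCA1low. Both SCA1int values lay above both SCA1high values, and the SCA1low values spanned those of the other LY6D- populations. The luminal keratin gene Krt8 stood at 276 and 76.1 CPM in SCA1int. Pecam1, which encodes the CD31 that the sort removed, was nonetheless read at 573 and 401 CPM in LY6D- SCA1high, 144 and 159 in SCA1int and 28.6 and 69.3 in SCA1low.

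The contrast of LY6D- SCA1int with the mean of both ends called 18 of 15270 genes higher (0.118% of the genes tested) and 0 lower, by the quasi-likelihood test of edgeR at a Benjamini-Hochberg adjusted p below 0.05. The genes called were led by Ackr4, by genes of basal keratins (Krt14, Krt15, Krt5, Krt17), by Scpep1 and by Defb50. At an unadjusted p below 0.05 the same test held 1288 genes higher (8.43%) and 397 lower (2.6%). DESeq2 called 390 higher and 500 lower, and 14 of the 18 genes were among its calls. Log2 fold changes of the 18 ran from 1.12 to 6.84, and the largest adjusted p among them was 0.0259. For 15 of the 18, both SCA1int libraries lay above all 4 other LY6D- libraries. Over all tested genes 1458 (9.55%) had that order and 1283 (8.4%) had both SCA1int libraries below the other 4. The 18 were called on these same libraries, so their order describes the call and is no separate evidence. In bulk RNA, a larger share of cells of a type and more RNA per cell cannot be told apart, and that holds for every level given here.

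**Figure D1:**
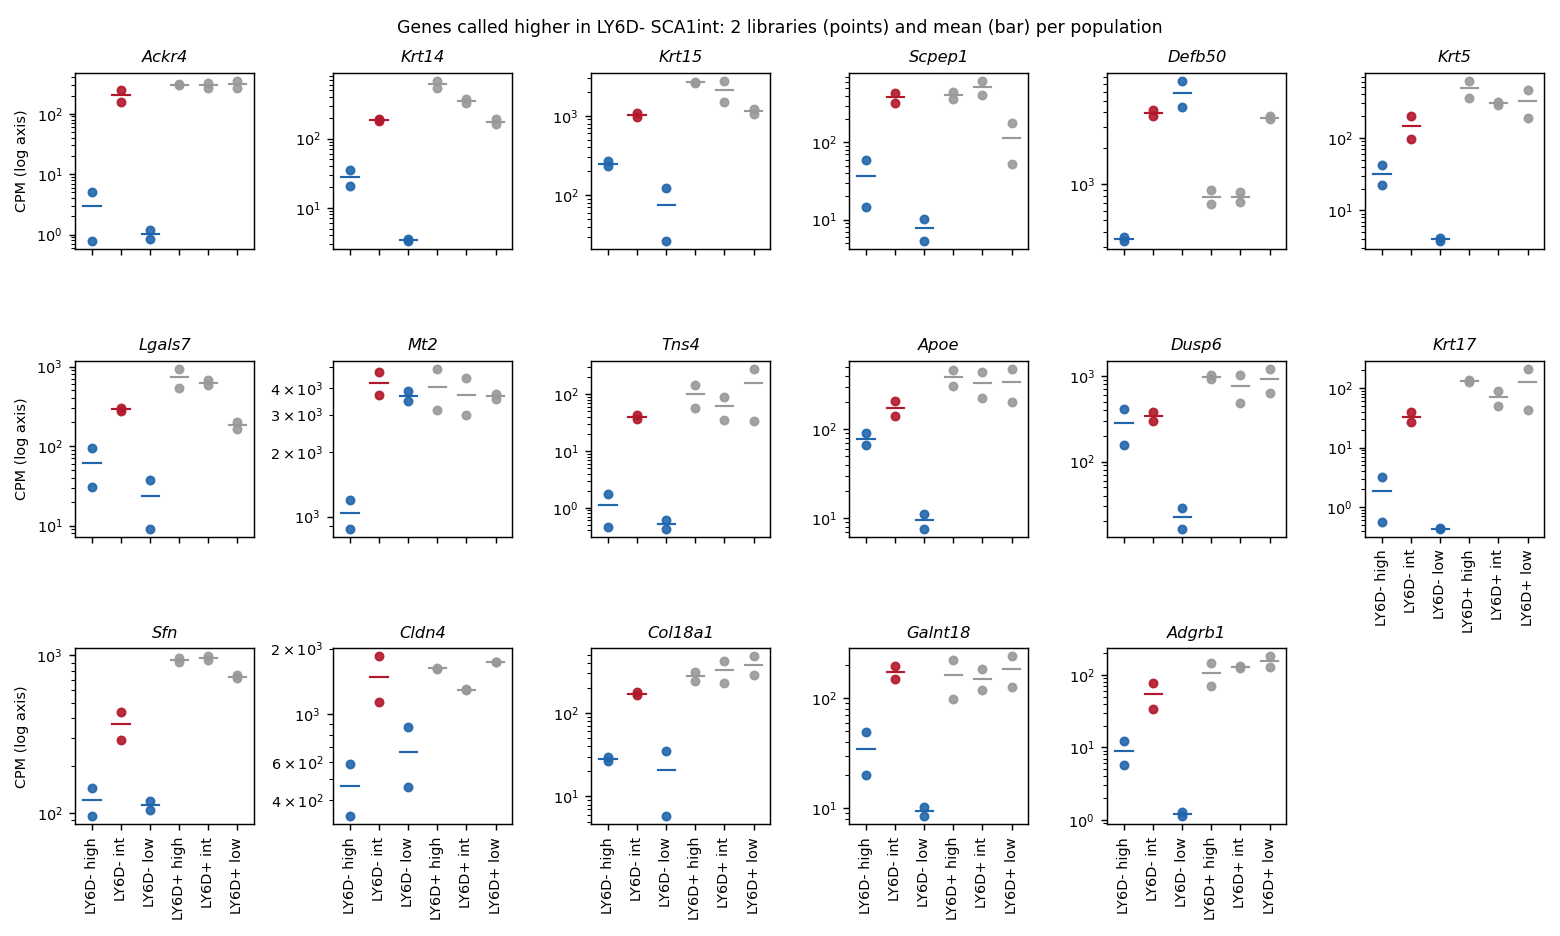
CPM on log axes of 17 of the 18 genes called higher in LY6D- SCA1int against the mean of LY6D- SCA1high and SCA1low, with 1 point per library and a bar at the mean of each of the 6 populations (2 libraries each). Red points (LY6D- SCA1int) lie above all blue points (other LY6D- libraries) in every panel but those of Defb50, Mt2 and Dusp6, and for most genes near or below the grey points of the LY6D+ populations.

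Ackr4 showed the lowest p of all genes. It has the identifier ENSMUSG00000079355 (GRCm38, chromosome 9, 104084157-104126933, minus strand). Its level was 157 and 248 CPM in the LY6D- SCA1int libraries, 0.782 and 5.08 in LY6D- SCA1high and 0.86 and 1.21 in LY6D- SCA1low. Both SCA1int libraries were thus far above the 4 others. The mean in SCA1int was 69-fold that in SCA1high and 195-fold that in SCA1low. Against the mean of both ends the log2 fold change was 6.84 ± 0.65 (SE; adjusted p = 4.70e-07), and it was called on each side alone, at 6.09 ± 0.85 against SCA1high (adjusted p = 1.76e-04) and 7.59 ± 0.91 against SCA1low (adjusted p = 3.94e-05). In LY6D+ cells Ackr4 did not follow SCA1 in this way. It stood at 296 and 312 CPM in LY6D+ SCA1high, 268 and 327 in SCA1int and 267 and 345 in SCA1low, and all 6 values exceeded both LY6D- SCA1int values. The call against the mean of both ends held in all 23 alternative fits, with log2 fold changes from 6.23 to 7.75. Ackr4 overlaps Acad11 on the opposite strand, and without a stated strand setting reads of the pair cannot be told apart. Acad11, an acyl-CoA dehydrogenase gene, had 5132 counts over all libraries against 34375 for Ackr4, and it stood at 0.412 and 7.12 CPM in LY6D- SCA1int against 51 and 24.8 in SCA1high.

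The keratin genes of basal cells formed the largest group. Krt14 (ENSMUSG00000045545, GRCm38, chromosome 11, 100203162-100207548, minus strand) stood at 178 and 193 CPM in LY6D- SCA1int, 20.5 and 35.6 in SCA1high and 3.55 and 3.29 in SCA1low. The 3 populations did not overlap, with SCA1int highest and SCA1low lowest. Its log2 fold change against the mean of both ends was 4.24 ± 0.47 (adjusted p = 8.65e-06). Against SCA1low alone it was called at 5.76 ± 0.67 (adjusted p = 3.94e-05), but against SCA1high alone, at 2.72 ± 0.58, it missed the threshold with an adjusted p of 0.054. Krt5 (ENSMUSG00000061527, GRCm38, chromosome 15, 101707070-101712898, minus strand), which encodes the keratin partner of keratin 14, stood at 95.7 and 199 CPM in SCA1int, 22.4 and 41.9 in SCA1high and 3.76 and 4.16 in SCA1low. It had the same order of populations, with a log2 fold change of 3.71 ± 0.52 (adjusted p = 2.52e-04) against the mean and 2.20 ± 0.64 (adjusted p = 0.481) against SCA1high alone. The mean levels in SCA1int were 6.61-fold (Krt14) and 4.59-fold (Krt5) those in SCA1high, and 54.2-fold and 37.2-fold those in SCA1low.

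Krt15, a keratin gene of basal and progenitor-like epithelial cells, was the most abundant of the group. It stood at 964 and 1087 CPM in LY6D- SCA1int, 266 and 230.3 in SCA1high and 26.4 and 125 in SCA1low, a log2 fold change of 2.90 ± 0.35 against the mean (adjusted p = 3.10e-05). Krt17, a keratin gene of basal cells and of epithelium under stress, stood at 40.1 and 26.5 CPM in SCA1int, 0.547 and 3.18 in SCA1high and 0.43 and 0.433 in SCA1low, and rose by 5.19 ± 0.99 on the log2 scale (adjusted p = 0.0173). Lgals7 encodes a galectin of stratified epithelia. Its values were 275 and 303 CPM in SCA1int, 30.2 and 93.7 in SCA1high and 9.14 and 37.3 in SCA1low, a log2 fold change of 2.93 ± 0.49 (adjusted p = 0.00401). None of these 3 genes overlapped between SCA1int and the other LY6D- libraries, and the call of Krt15 held in all 23 alternatives. The call of Krt17 ended without LY6D- SCA1high replicate 1 (adjusted p = 0.179), SCA1int replicate 1 (0.087) or SCA1low replicate 1 (0.058).

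These 5 genes were the called members of a list of 25 basal epithelial markers, all of which were tested, and 0 members were called lower. At an unadjusted p below 0.05, 13 of the 25 were higher and 0 lower, and 13 had both SCA1int libraries above the 4 others. Over all tested genes 0.118% were called higher, 8.43% were higher at an unadjusted p below 0.05 and 9.55% had that order. The median log2 fold change of the list was 2.25 against the mean of both ends, 2.01 against SCA1high and 3.21 against SCA1low, where all tested genes had medians of 0.247, 0.061 and 0.221. The list held members that did not pass. Trp63, the transcription factor that defines basal identity, stood at 38.6 and 11 CPM in LY6D- SCA1int, 0.0782 and 12.2 in SCA1high and 0.43 and 0.433 in SCA1low, so that 1 SCA1int library lay below 1 SCA1high library (log2 fold change 3.91 ± 1.23, adjusted p = 0.332). Cdh3, which encodes P-cadherin, stood at 43.7 and 35.2 CPM in SCA1int, 10.2 and 1.95 in SCA1high and 0.968 and 1.47 in SCA1low (adjusted p = 0.332). Lamb3, a chain of the basement-membrane laminin of hemidesmosomes, stood at 40.9 and 14.2 CPM in SCA1int, 0.156 and 2.63 in SCA1high and 0.323 and 0.0866 in SCA1low (adjusted p = 0.332). Itga6, the integrin often used to sort basal cells, stood at 171 and 334 CPM in SCA1int and 283 and 158 in SCA1high, with overlapping values. DESeq2 called 11 of the 25 higher, among them Trp63, Cdh3 and Lamb3, and 0 lower. Other fits called fewer than the main one. With RLE scaling 4 were called, without Krt17. The 6 LY6D- libraries alone gave 2 (Krt14 and Krt15), as did limma-trend. With SCA1high and SCA1low as 1 reference group only Krt15 was called. Krt5 (adjusted p = 0.23, 0.113 and 0.376 in these last fits, in that order) and Lgals7 (0.2, 0.117 and 0.168) thus lost their calls there.

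The summed CPM of the 25 basal genes was 3188 and 3323 in LY6D- SCA1int, 2268 and 2486 in SCA1high and 548 and 953 in SCA1low. In the LY6D+ populations it ran from 3816 to 6822, so no LY6D- library reached any LY6D+ library. The same comparison for single genes gave that order less evenly. The mean of LY6D- SCA1int was below that of LY6D+ SCA1int for 14 of the 18 called genes, and for 11 both LY6D- SCA1int libraries were below both LY6D+ SCA1int libraries. As a share of the LY6D+ SCA1int mean, the LY6D- SCA1int mean ran from 38% (Sfn) to 505% (Defb50), with a median of 52.9% over the 18. For Ackr4 it was 68%, for Krt14 53.1% and for Krt5 49%. Ly6d, whose protein separates both states, stood at 1.44 and 2.23 CPM in LY6D- SCA1int, 0.938 and 3.85 in LY6D- SCA1high and 0.968 and 0.433 in LY6D- SCA1low, with overlapping values.

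Scpep1 was the only gene besides Ackr4 that edgeR called higher on both sides. It encodes a serine carboxypeptidase of the lysosome (ENSMUSG00000000278, GRCm38, chromosome 11, 88924020-88955465, minus strand). Its level was 325 and 443 CPM in LY6D- SCA1int, 58.6 and 14.7 in SCA1high and 5.27 and 10.3 in SCA1low. SCA1int lay above all other LY6D- libraries, by 10.5-fold over the mean of SCA1high and 49.3-fold over that of SCA1low. The log2 fold change was 4.51 ± 0.56 against the mean (adjusted p = 3.50e-05), 3.39 ± 0.70 against SCA1high (adjusted p = 0.0423) and 5.62 ± 0.78 against SCA1low (adjusted p = 2.08e-04). The call against SCA1high was lost without LY6D- SCA1high replicate 2 (log2 fold change 2.69, adjusted p = 0.393) and without SCA1int replicate 2 (3.07, adjusted p = 0.106). In LY6D+ cells it stood at 455 and 361 CPM in SCA1high, 620 and 413 in SCA1int and 52.4 and 178 in SCA1low.

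A further 4 called genes, Tns4, Col18a1, Galnt18 and Adgrb1, had the same peaked order. Tns4, a tensin of focal adhesions, stood at 36.1 and 43.9 CPM in LY6D- SCA1int, 0.469 and 1.74 in SCA1high and 0.43 and 0.606 in SCA1low, and rose by 5.70 ± 1.04 on the log2 scale (adjusted p = 0.0124). Col18a1, a collagen of basement membranes, stood at 178 and 163 CPM in SCA1int, 26.4 and 30 in SCA1high and 35.2 and 5.8 in SCA1low (log2 fold change 2.83 ± 0.56, adjusted p = 0.0235). Both were called only against the mean of the ends, and on neither side alone. Galnt18, of the family that starts mucin-type O-glycans, stood at 149 and 194 CPM in SCA1int, 49.6 and 20.2 in SCA1high and 8.5 and 10.3 in SCA1low (log2 fold change 3.24 ± 0.64, adjusted p = 0.0235). Adgrb1, an adhesion G-protein-coupled receptor, stood at 77.1 and 33.3 CPM in SCA1int, 5.63 and 12.4 in SCA1high and 1.29 and 1.13 in SCA1low (log2 fold change 4.06 ± 0.82, adjusted p = 0.0259). For each of the 4, both SCA1int libraries exceeded the other 4 LY6D- libraries. Single libraries decided some of these calls. The call of Adgrb1 was lost without either LY6D- SCA1high library, either SCA1low library or SCA1int replicate 1 (adjusted p from 0.066 to 0.349), and that of Galnt18 without SCA1high replicate 2, either SCA1int library or SCA1low replicate 1 (0.067 to 0.348). Col18a1 lost its call without either SCA1int library (0.103 and 0.081), and Tns4 without SCA1high replicate 1 (0.07).

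Sfn and Cldn4 were also above all other LY6D- libraries, with smaller differences. Sfn, which encodes stratifin, an adaptor protein of stratified epithelium, stood at 437 and 292 CPM in LY6D- SCA1int, 145 and 95.4 in SCA1high and 119 and 105 in SCA1low (log2 fold change 1.65 ± 0.33, adjusted p = 0.0235). It was the 1 called member of the 11 tested genes of stratified and cornified epithelium, whose median of 0.612 compares with 0.247 for all genes. Cldn4, a claudin of tight junctions, stood at 1842 and 1132 CPM in SCA1int, 589 and 336 in SCA1high and 871 and 457 in SCA1low (log2 fold change 1.42 ± 0.28, adjusted p = 0.0235). Cldn4 was called against SCA1high alone (1.69 ± 0.35, adjusted p = 0.0423), and Sfn on neither side alone. Without SCA1int replicate 1 both lost the call against the mean, each with an adjusted p of 0.349, and Sfn also without SCA1int replicate 2 (0.071) or SCA1high replicate 2 (0.143).

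For 3 further called genes the difference was larger against 1 end than against the other. Dusp6, a phosphatase that switches off ERK, stood at 379 and 301 CPM in LY6D- SCA1int, 158 and 413 in SCA1high and 16.5 and 28.4 in SCA1low. SCA1int and SCA1high overlapped, and only SCA1low was apart (log2 fold change 3.92 ± 0.53 against SCA1low, adjusted p = 1.48e-04; 0.25 ± 0.47 against SCA1high, adjusted p = 0.981). Apoe, which encodes the lipid carrier apolipoprotein E, stood at 209 and 140.4 CPM in SCA1int, 90.9 and 65.9 in SCA1high and 7.64 and 11.3 in SCA1low. It was called against the mean (2.68 ± 0.50, adjusted p = 0.0152) and against SCA1low (4.21 ± 0.68, adjusted p = 0.00192), and against SCA1high the difference of 1.16 ± 0.60 did not pass (adjusted p = 0.568). Mt2, a metal-binding metallothionein gene, was low at the other end. It stood at 4772 and 3692 CPM in SCA1int, 1189.6 and 878 in SCA1high and 3864 and 3458 in SCA1low, with SCA1int and SCA1low overlapping. Its log2 fold change was 2.03 ± 0.25 against SCA1high (adjusted p = 1.80e-05) and 0.21 ± 0.24 against SCA1low (adjusted p = 0.756). Mt2 shares its locus with the antisense gene Gm45774, which stood at 917 and 756 CPM in SCA1int and 233 and 143 in SCA1high, and the reads of the pair cannot be told apart without strand. Leaving out SCA1int replicate 1 ended the calls of Dusp6 (adjusted p = 0.082), Apoe (0.262) and Mt2 (0.117) against the mean.

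Most secretory genes of luminal cells lay between the ends. Defb50, a beta-defensin gene, stood at 3752 and 4219 CPM in LY6D- SCA1int, 333 and 361 in SCA1high and 7320.2 and 4436 in SCA1low. Both SCA1low libraries exceeded both SCA1int libraries, and the gene was called against the mean of the ends (1.48 ± 0.20, adjusted p = 1.81e-04) without being highest in SCA1int. That call was lost with DESeq2 (adjusted p = 0.0917), limma-trend (0.0545) and SCA1high and SCA1low as 1 reference group (0.973). Msmb, which encodes the secreted beta-microseminoprotein (ENSMUSG00000021907, GRCm38, chromosome 14, 32142023-32158370, plus strand), stood at 808 and 785 CPM in SCA1int, 28.2 and 56.2 in SCA1high and 1178 and 851 in SCA1low. It was 18.9-fold higher in SCA1int than in SCA1high (log2 fold change 4.24 ± 0.57, adjusted p = 1.24e-04) and its difference from SCA1low did not pass (-0.35 ± 0.50, adjusted p = 0.82). Against the mean of both ends its difference of 1.94 ± 0.42 missed the threshold, with an adjusted p of 0.0578. Of 23 alternatives, 14 carried that difference past the threshold, among them 9 of the 12 that left out 1 library.

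Spink1, a secreted inhibitor of serine proteases, was the most abundant of these genes, at 22780 and 27939 CPM in LY6D- SCA1int, 1792 and 3504 in SCA1high and 71398 and 34790 in SCA1low. Pbsn encodes probasin, the androgen-driven secretory protein, and stood at 3055 and 2545 CPM in SCA1int, 276 and 421 in SCA1high and 10655 and 7158 in SCA1low. For both genes the 3 populations did not overlap, with SCA1int in the middle. Pbsn was called in opposite directions on its sides, 3.01 ± 0.29 against SCA1high (adjusted p = 5.20e-07) and -1.67 ± 0.28 against SCA1low (adjusted p = 0.00297). Spink1 was called against SCA1high (3.26 ± 0.33, adjusted p = 7.16e-07) and not against SCA1low (-1.07 ± 0.31, adjusted p = 0.31). Against the mean of both ends its difference of 1.10 ± 0.25 did not pass in the main fit (adjusted p = 0.107). EdgeR called that difference with no filter on low counts (5.32e-48) and with the replicate block (0.0131). Over 23 alternatives it ran from -0.136, with SCA1high and SCA1low as 1 reference group, to 1.325. Whether it was called changed with the library left out. Of the 27 secretory luminal genes, all tested, 1 was called higher and 0 lower against the mean, 5 were called higher against SCA1high and 1 lower against SCA1low. Over all tested genes the shares were 0.118% higher against the mean, 0.105% higher against SCA1high and 0.0589% lower against SCA1low. Against the mean, the replicate block called 3 of the list higher and no filter on low counts 4, while DESeq2 and limma-trend called 0. The SCA1int mean lay between the means of the ends for 20 of the 27, against 5163 of 15270 genes tested. The list had medians of 0.759 against the mean of both ends, 2.34 against SCA1high and -0.927 against SCA1low. Its summed CPM was 35740 and 41611 in SCA1int, 3716 and 5697 in SCA1high and 106890 and 61863 in SCA1low.

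Against SCA1high alone, 16 genes were higher in LY6D- SCA1int (0.105%) and 1 was lower (0.00655%). At an unadjusted p below 0.05 the shares were 3.82% and 4.51%. Besides the genes above, those higher included Defb1, a beta-defensin gene (314 and 376 CPM in SCA1int against 1.88 and 32.9), the secretory gene Sbp (2170.2 and 3642 against 247 and 375), Prdx6, a peroxiredoxin gene (727 and 754 against 165 and 175), and Dnajc10, an endoplasmic reticulum reductase gene (402 and 537 against 71.3 and 125). In each of these, no SCA1int library overlapped SCA1high, and both SCA1low libraries stood above SCA1int. The 1 gene lower than in SCA1high was Nfkbia, the inhibitor of NF-kappa-B, at 1328 and 1559 CPM in SCA1int against 3572 and 3679 (log2 fold change -1.33 ± 0.28, adjusted p = 0.0495), with SCA1low lower again at 549 and 715. That call was lost in 7 of 20 alternatives, namely RLE scaling (adjusted p = 0.0553), DESeq2 (0.0888), the 6 LY6D- libraries alone (0.0525), limma-trend (0.178) and leaving out SCA1int replicate 1 (0.366), SCA1int replicate 2 (0.0517) or SCA1high replicate 2 (0.0844).

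Against LY6D- SCA1low, 18 genes were higher (0.118%) and 9 lower (0.0589%), and at an unadjusted p below 0.05 the shares were 6.47% and 3.33%. With RLE scaling, which lowers the median log2 fold change of all genes against the mean of both ends by 0.293, these counts were 11 higher and 23 lower. The 2 sides share the SCA1int libraries. Among the genes higher, several stood as high in SCA1high as in SCA1int. Tgm2, a transglutaminase gene, stood at 373 and 505 CPM in SCA1int, 536 and 504 in SCA1high and 24.4 and 70 in SCA1low (log2 fold change 3.22 ± 0.49 against SCA1low, adjusted p = 8.88e-04). Hbegf, which encodes a ligand of the EGF receptor, stood at 616 and 419.6 CPM in SCA1int, 510.4 and 498 in SCA1high and 142 and 91.7 in SCA1low, and Ier3, an immediate early gene, at 1394 and 1114 CPM in SCA1int, 2106 and 2018 in SCA1high and 294 and 430.1 in SCA1low. Those lower included the chaperone gene Calr of the endoplasmic reticulum, at 722 and 1156 CPM in SCA1int against 3502 and 3124 in SCA1low (log2 fold change -1.82 ± 0.33, adjusted p = 0.00598), and the mitochondrial ribosomal RNA mt-Rnr1, at 5642 and 5698 against 12777 and 14806 (adjusted p = 0.0299). Of these 9, 4 are the small nuclear RNA Rn7sk and features that hold nearly the same counts, which cannot be told apart.

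Called on both sides in the same direction were 2 genes higher (0.0131%), Ackr4 and Scpep1, and 0 lower. DESeq2 called 83 genes higher on both sides and 141 lower. A graded order, higher than at one end and lower than at the other, was called for 3 genes (0.0196%): Pbsn, 9530053A07Rik and Gm26917. All 3 were lowest in SCA1high and highest in SCA1low. 9530053A07Rik, for example, stood at 514 and 651 CPM in SCA1high, 2938 and 3142 in SCA1int and 15885 and 9293 in SCA1low. Of the 18 genes called against the mean, 5 were also called against SCA1high alone, 11 against SCA1low alone and 4 against neither.

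**Figure D2:**
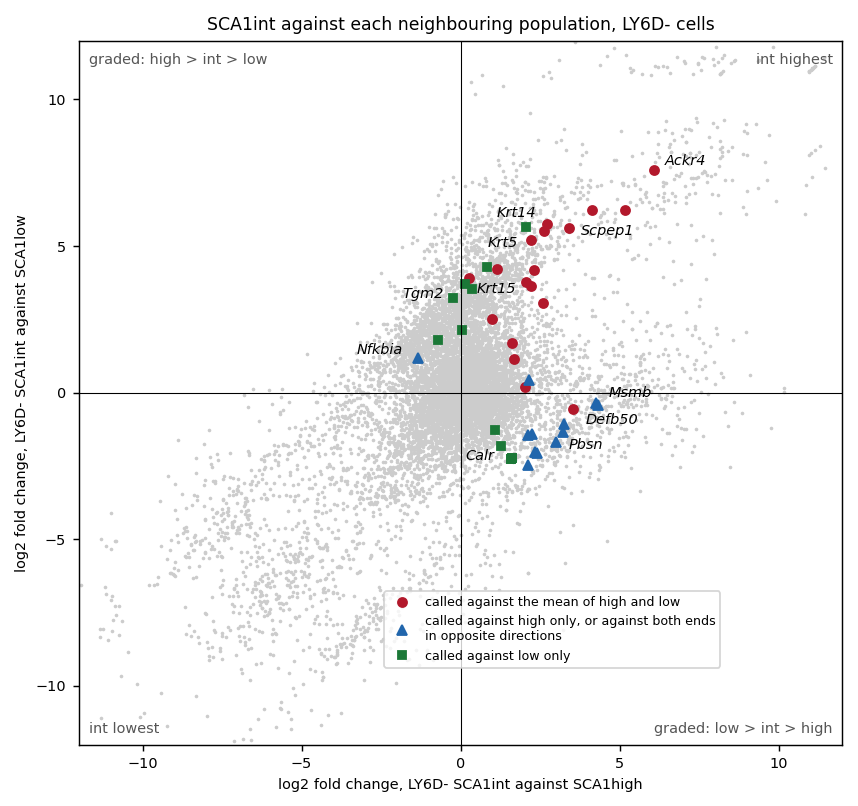
Log2 fold change of LY6D- SCA1int against SCA1high (horizontal) and against SCA1low (vertical) for 10587 genes with a mean CPM of at least 5 in the LY6D- libraries, points beyond 12 on either axis not being shown. Genes called against the mean (red circles) lie mostly at the upper right, where SCA1int is highest, while Msmb and Pbsn lie at the lower right and no called gene lies at the lower left.

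In its main fit edgeR called no gene at a dip, against the mean or on both sides, while DESeq2 called 500 genes lower against the mean. With no filter on low counts edgeR called 1 gene lower against the mean. In some fits with a library left out it also called genes lower. The 12 dip genes that the naming rule takes all had an adjusted p of 0.332 in edgeR and log2 fold changes from -7.10 to -1.80, and their highest level in a SCA1int library was 97.4 CPM. DESeq2 called all 12 lower, with adjusted p from 4.06e-09 (Eps8l2) to 0.0242 (Pdia4). With both libraries that stood apart left out, edgeR called Dctn4 (adjusted p = 0.0422) and Nup153 (0.031), and none of the 12 was called in any other alternative. In all 12 both SCA1int libraries lay below the other 4, which the rule requires. Scaf11, a gene linked to pre-mRNA splicing, had the lowest p, at 1.65 and 2.49 CPM in SCA1int, 33.3 and 6.52 in SCA1high and 109 and 39.8 in SCA1low. Rnf34, which encodes a RING-finger ubiquitin ligase, stood at 0.669 and 0.687 CPM in SCA1int, 17.7 and 24.2 in SCA1high and 61.4 and 33.9 in SCA1low, and Nup153, a nuclear pore gene, at 0.515 and 0.858 CPM in SCA1int, 18.8 and 92 in SCA1high and 49.5 and 3.2 in SCA1low. In these genes the 4 other libraries differed among themselves by several fold. Igf1, the stromal growth factor gene, stood at 0.669 and 0.429 CPM in SCA1int, 61.8 and 137 in SCA1high and 4.41 and 9.78 in SCA1low, and Foxc1, a forkhead factor gene, at 0.36 and 1.2 CPM in SCA1int, 72.5 and 41.8 in SCA1high and 3.66 and 27.3 in SCA1low. Pdia4, a disulfide isomerase gene of the endoplasmic reticulum, was the most abundant, at 97.4 and 79.1 CPM in SCA1int, 183 and 102 in SCA1high and 844 and 482 in SCA1low. The others were Dctn4, Ddhd2, Eps8l2, Ptgfrn, Crispld2 and Nemf.

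The same contrast in LY6D+ cells called 2 genes higher (0.0131%) and 1 lower (0.00655%), and none of the 18 was among them. Of all genes 5.42% were higher and 0.91% lower there at an unadjusted p below 0.05. The difference between the LY6D- and the LY6D+ contrast was tested directly. It was called for 7 genes, all with the larger value in LY6D- cells (0.0458%): Defb50, Ackr4, Spink1, Krt14, Msmb, Pbsn and Krt5. For 0 genes was it called in the other direction, where 768 genes (5.03%) were below an unadjusted p of 0.05 and 442 were called by DESeq2. On the side of a larger value in LY6D- cells 3.69% of all genes were below an unadjusted p of 0.05. The difference contains the LY6D- contrast that chose the 18 genes, so that its positive sign in all 18 follows largely from that choice. It was called for 4 of them. For Ackr4 the contrast was 6.84 ± 0.65 in LY6D- and -0.04 ± 0.59 in LY6D+ cells, a difference of 6.88 ± 0.95 (adjusted p = 5.54e-04). For Krt14 it was 4.24 ± 0.47 against 0.09 ± 0.47, a difference of 4.15 ± 0.71 (adjusted p = 0.00992), and for Krt5 3.71 ± 0.52 against -0.39 ± 0.53, a difference of 4.10 ± 0.79 (adjusted p = 0.0341). Without 1 of 4 libraries the Krt5 difference was not called, the highest adjusted p being 0.493 without LY6D- SCA1int replicate 2. Without LY6D+ SCA1int replicate 2 the Krt14 difference was not called either (0.0603). For Scpep1 the difference of 3.25 ± 0.81 did not pass (adjusted p = 0.356).

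In LY6D+ cells the keratin genes were high at all SCA1 levels. Krt14 stood at 539 and 679 CPM in LY6D+ SCA1high, 373 and 324 in SCA1int and 161 and 193 in SCA1low. Krt5 stood at 359 and 608 CPM in SCA1high, 318 and 284 in SCA1int and 186 and 460.3 in SCA1low. The 4 secretory genes had another order. Msmb stood at 39.8 and 50.4 CPM in LY6D+ SCA1int, overlapping 13.5 and 50.9 in SCA1high and far below 722 and 622 in SCA1low. In LY6D- cells SCA1int was instead near SCA1low. Its contrast was 1.94 ± 0.42 in LY6D- and -1.70 ± 0.47 in LY6D+ cells, a difference of 3.65 ± 0.64 (adjusted p = 0.0132). Defb50 (2.58 ± 0.30, adjusted p = 5.00e-05), Spink1 (2.54 ± 0.38, adjusted p = 0.00146) and Pbsn (1.84 ± 0.34, adjusted p = 0.0213) showed the same pair of signs, positive in LY6D- and negative in LY6D+ cells.

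**Figure D3:**
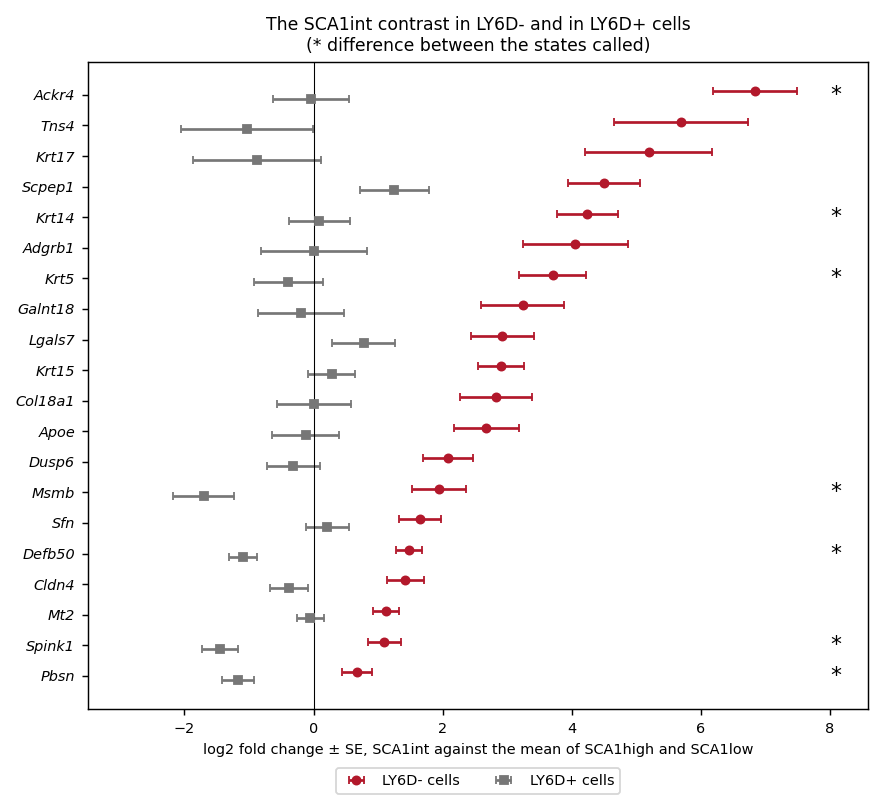
Log2 fold change of SCA1int against the mean of SCA1high and SCA1low in LY6D- cells (red circles) and in LY6D+ cells (grey squares), with SE bars, for 17 of the 18 called genes and for Msmb, Spink1 and Pbsn, where an asterisk marks a called difference between the LY6D states. Krt14, Krt15, Krt5 and Ackr4 lie near 0 in LY6D+ cells, while Msmb, Defb50, Spink1 and Pbsn lie below 0 there.

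Other gene groups gave few calls against the mean of both ends by edgeR, whose counts are given first. Over all tested genes 0.118% were called higher. At an unadjusted p below 0.05, 8.43% of all tested genes were higher and 2.6% lower. Of 22 proximal luminal genes tested 0 were called and 4 were higher at an unadjusted p below 0.05, with a median of 0.522. DESeq2 called 2 of them higher, Cp and Lcn2. Cp, which encodes ceruloplasmin, stood at 139 and 66.9 CPM in LY6D- SCA1int, 36.4 and 33.5 in SCA1high and 4.52 and 22.1 in SCA1low (log2 fold change 2.25 ± 0.56, adjusted p = 0.172 by edgeR, 0.0367 by DESeq2 and 0.00303 by edgeR without SCA1low replicate 2). Psca, a surface marker of proximal luminal cells, stood at 189.5 and 90 CPM in SCA1int, 323 and 137 in SCA1high and 44.4 and 42.9 in SCA1low, with SCA1int and SCA1high overlapping. The 36 immediate early and heat shock genes had 0 calls and 9 members higher at an unadjusted p below 0.05. DESeq2 called 1 of them, Fosl1 (adjusted p = 0.00126), and edgeR called Egr1, Fosl1 and Ccn1, which encodes a secreted matrix protein, when either LY6D+ SCA1int library was left out (adjusted p from 0.00491 to 0.048). Without LY6D- SCA1low replicate 1 Ccn1 alone was called (3.00e-05), without LY6D- SCA1int replicate 2 Fosl1 alone (0.0286), and Egr1 alone with no filter on low counts (0.0142) or without both libraries that stood apart (0.0203). Fosl1, an AP-1 factor gene, reached 57.9 and 1.63 CPM in SCA1int, so that 1 library carried its difference, and Egr1 stood at 2988 and 2573 CPM in SCA1int against 1594 and 1588 in SCA1high and 1720.1 and 1782 in SCA1low (log2 fold change 0.74 ± 0.19, adjusted p = 0.191). The 26 Notch and Wnt genes had 0 calls, 2 members higher at an unadjusted p below 0.05, 0 calls by DESeq2 and a median of 0.71. Among them Lgr4, a receptor for R-spondins, stood at 97.4 and 79.8 CPM in SCA1int, 23.7 and 1.27 in SCA1high and 0.968 and 4.59 in SCA1low (adjusted p = 0.332). Ackr4 was the 1 called member of 17 tested chemokine genes, whose median was -0.949. Ackr1, a related receptor of venous endothelium, stood at 2.73 and 5.75 CPM in SCA1int and 148 and 198 in SCA1high. DESeq2 called Ackr4 and Cxcl14 (adjusted p = 0.0357) higher, and Ackr1 (0.0355) and Cxcl15 (0.00681) lower.

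The 40 tested genes of the secretory pathway and the unfolded protein response had 0 calls against the mean and a median of 0.089. Of these, 1 was lower at an unadjusted p below 0.05 and 1 was called lower by DESeq2 (Pdia4). The SCA1int mean lay between the means of the ends for 25 of the 40, against 5163 of 15270 genes tested. The summed CPM of the 40 was 9444 and 10005 in SCA1int, 5516 and 5414 in SCA1high and 21951 and 16766 in SCA1low. All 15 mitochondrial-encoded genes lay between the ends and none had an unadjusted p below 0.05 or was called by DESeq2, with summed values of 44144 and 44900 CPM in SCA1int, 22053 and 36541 in SCA1high and 75838 and 71258 in SCA1low. Androgen response genes numbered 20, with 0 calls and 2 members higher at an unadjusted p below 0.05. DESeq2 called 1 of them, Acsl3 (adjusted p = 0.039). Acsl3, a fatty acid activating enzyme gene, stood at 190.2 and 141 CPM in SCA1int, 2.97 and 6.86 in SCA1high and 101 and 139 in SCA1low (log2 fold change 2.77 ± 0.80, adjusted p = 0.332). The 33 interferon and MHC class I genes had 0 calls, 1 member lower at an unadjusted p below 0.05, 1 called lower by DESeq2 (Gbp6) and a median of -0.334, and 22 lay between the ends, with summed levels of 4227 and 3286 CPM in SCA1int, 8071 and 7901 in SCA1high and 2378 and 2593 in SCA1low.

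**Figure D4:**
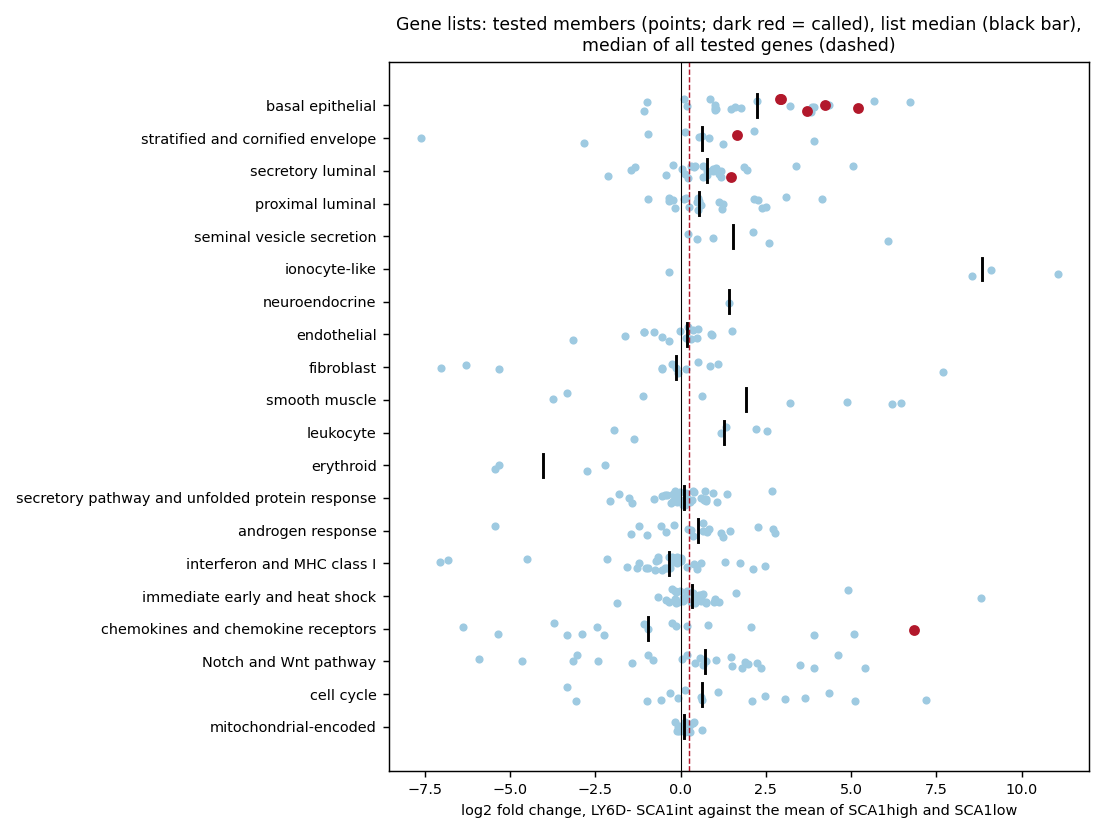
Log2 fold change of LY6D- SCA1int against the mean of SCA1high and SCA1low for each tested gene of 20 lists (points, dark red where called), with the median of each list (black bar) and of all tested genes (dashed line at 0.247). The basal list has its median at 2.25 and holds 5 of the called genes, and the medians of the ionocyte-like, neuroendocrine and erythroid lists rest on 4, 1 and 4 genes.

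Markers of other cell types were read in the same libraries. At an unadjusted p below 0.05, 8.43% of all tested genes were higher and 2.6% lower. All 18 endothelial genes were tested, and none was called by edgeR or DESeq2 or had an unadjusted p below 0.05. The SCA1int mean lay between the means of the ends for 16 of the 18, against 5163 of 15270 genes tested. The 18 summed to 1707 and 1984 CPM in LY6D- SCA1int, 5035 and 5818 in SCA1high and 434 and 927 in SCA1low. Kdr and Flt1, receptors of vascular endothelial growth factor, stood at 166 and 276 and at 234 and 331 CPM in SCA1int. The 13 tested fibroblast genes had 0 calls, 2 members higher at an unadjusted p below 0.05, 1 called lower by DESeq2 (Dpt) and summed levels of 1180 and 1122 CPM in SCA1int, 2440 and 2443 in SCA1high and 448 and 535 in SCA1low. The part of these cells in the levels of SCA1high was not tested. Leukocyte genes summed to 63 and 78 CPM in SCA1int, 12.4 and 17.5 in SCA1high and 93.6 and 20.3 in SCA1low. Smooth muscle genes summed to 177 and 128 CPM in SCA1int, 156 and 182 in SCA1high and 58.1 and 158 in SCA1low. In both lists the main edgeR fit called 0. The smooth muscle gene Tpm2 stood at 14.2 and 23.6 CPM in SCA1int and at most at 0.508 in the other LY6D- libraries. Its log2 fold change of 6.21 ± 1.34 did not pass in the main edgeR fit (adjusted p = 0.0605) and was called by DESeq2 (5.15e-06). EdgeR called it with no filter on low counts (0.0252), with the replicate block (0.0486) and in some fits with an LY6D+ library left out. RLE scaling, library size scaling and limma-trend did not call it. In the LY6D+ libraries Tpm2 ran from 7.28 to 120 CPM. Seminal vesicle secretion genes differed between replicates by several fold in SCA1int and SCA1low, at 4642 and 1616 CPM in SCA1int, 280 and 605 in SCA1high and 6236 and 487 in SCA1low. Of 6 tested, 0 were called and 3 were higher at an unadjusted p below 0.05. Svs2 stood at 950 and 281 CPM in SCA1int, 83.5 and 47.9 in SCA1high and 278 and 37.9 in SCA1low (log2 fold change 2.59 ± 0.61, adjusted p = 0.128). With no filter on low counts edgeR called Svs2 (adjusted p = 0.00128) and Pate4 (8.22e-08), and with the replicate block Svs2 (0.0339). Svs2 and Pate4 were each called in 13 of 23 alternatives, most of them fits with 1 library left out. Without LY6D- SCA1int replicate 1 neither was called. Over the alternatives the log2 fold change ran from 1.438 to 3.426 for Svs2 and from 1.004 to 3.803 for Pate4. DESeq2, RLE scaling and limma-trend called 0. Ionocyte-like genes were read in a single LY6D- library. Of 4 tested, edgeR called 0 and DESeq2 called 1 higher, Foxi1 (adjusted p = 0.0306). Foxi1, the factor that defines these cells, stood at 63.3 and 0 CPM in SCA1int, Atp6v0d2, a proton pump subunit gene, at 34.8 and 0.172 and Atp6v1b1, another subunit, at 9.06 and 0, with at most 1 CPM for the 4 tested genes together in the other LY6D- libraries.

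The pattern of Ackr4 over all 12 libraries was closest to that of Krt17 (Pearson r of log2(CPM + 1) 0.965), followed by Rpl31-ps9 (0.963), Col7a1 (0.961), Rpl31-ps8 (0.96) and Tns4 (0.958). These values share the libraries and their depth. Col7a1, the collagen of anchoring fibrils under stratified epithelium, stood at 15.2 and 28.5 CPM in LY6D- SCA1int, 0.313 and 2.75 in SCA1high, 0.86 and 0.346 in SCA1low and from 51.6 to 154 in LY6D+ libraries. Its log2 fold change in the LY6D- contrast was 4.49 ± 1.03, which did not pass (adjusted p = 0.101).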

How the data were processed

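Each library holds 3′ mRNA tags (Lexogen QuantSeq FWD, 10 to 20 ng of total RNA, per the labels' protocols); no molecular identifiers are named. The submitters' processing notes name the build mm10 and the tools STAR 2.5.1, cutadapt 1.9.1, featureCounts, edgeR, Picard 1.96, Subread and SAMtools 1.3.1. Neither the annotation nor the strand setting is given in the sources used here. The authors deposited raw counts per gene for 48795 identifiers, used for all main tests, and a table of normalised signal values, used for 1 alternative (limma-trend). Symbols were found for 48349 identifiers, and the 446 without one held 0.475% of counts. GENCODE M21 (GRCm38) gave the coordinates, counted from 1.

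The quasi-likelihood functions of edgeR 4.0.16 (R 4.3.3) were fitted to all 12 libraries after TMM scaling and a low-count filter (filterByExpr) that kept 15270 genes, with a mean for each population and 6 residual degrees of freedom. A gene was called where its Benjamini-Hochberg adjusted p over the whole table was below 0.05. The SE was taken from the log2 fold change and its F statistic. The contrasts were SCA1int minus the mean of SCA1high and SCA1low in LY6D- cells, each side alone, and the difference from the same contrast in LY6D+ cells. The code was tested on simulated data whose spread was smaller than the common dispersion of 1.65 found here. That test therefore gives no rate of missed or false calls for these libraries. DESeq2 1.42.0 and limma 3.58.1 served as alternatives, beside other scalings and filters, the replicate number as a block, and each library left out.

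The members, lists and named-gene rule were chosen with earlier results of these data known, and leaving out both libraries that stood apart was chosen after seeing the data. Named are the 4 given markers; up to 12 genes per direction by p with both SCA1int libraries beyond the 4 others and a mean CPM of at least 5, filled up at an unadjusted p below 0.05; genes called on both sides; the 6 smallest p of the difference between LY6D states; up to 4 members per list; and the 5 genes closest to Ackr4. Other genes, among them the rest of the 18 called, those called on a single side and single list members, were named after their values were seen. Of the 18 called genes 1 is not reported here.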

Additional observations from a re-analysis of the deposited data

Results flagged for a closer look

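For 7 genes the contrast of SCA1int with the mean of SCA1high and SCA1low differed between LY6D- and LY6D+ cells in edgeR's test of the difference itself. On the log2 scale, LY6D- minus LY6D+, the difference was 6.88 for Ackr4, 4.15 for Krt14 and 4.1 for Krt5. It was 3.65 for Msmb, 2.58 for Defb50, 2.54 for Spink1 and 1.84 for Pbsn. In LY6D+ cells the contrast was smaller than its SE for Ackr4 (-0.04 ± 0.59), Krt14 (0.09 ± 0.47) and Krt5 (-0.39 ± 0.53). It was negative there for Msmb, Defb50, Spink1 and Pbsn. The call for Defb50 held in all 19 alternatives and that for Ackr4 in all but limma-trend (adjusted p = 0.162). With RLE scaling the calls of Krt14 (0.0595), Krt5 (0.171), Msmb (0.0945), Spink1 (0.106) and Pbsn (0.574) were lost. Limma-trend lost the same calls, with adjusted p from 0.842 to 0.859. DESeq2 lost those of Spink1 (0.137) and Pbsn (0.303), and library size scaling that of Pbsn (0.0517).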

How the results depend on the processing

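With 2 libraries a group and widely spread replicates, the number of called genes moved with nearly every choice, and with some choices the balance of higher and lower calls did too. Against the mean of both ends (18 calls), RLE scaling gave 8, no filter 34, the 6 LY6D- libraries alone 7, a test against a 1.5-fold change 9, SCA1high and SCA1low as 1 reference group 3, DESeq2 890 (390 higher and 500 lower), limma-trend 4 and leaving out both libraries that stood apart 53; library size scaling and the removal of ribosomal RNA features stayed within 1.5 times. Leaving out 1 library gave 11 to 42 calls. The lowest was without LY6D- SCA1int replicate 1 (11, of which 9 among the 18), and leaving out LY6D- SCA1high replicate 2 gave 30, LY6D- SCA1low replicate 2 36, and the LY6D+ libraries 31 and 36 (SCA1high replicates 1 and 2), 40 and 42 (SCA1int) and 31 and 32 (SCA1low). Ackr4, Krt15 and Scpep1 kept their calls in all 23 alternatives, and Krt14 in all but the single reference group (adjusted p = 0.075).

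Against SCA1high alone (17 calls), RLE scaling gave 10, library size scaling 10, no filter 59, the LY6D- libraries alone 32, DESeq2 503, limma-trend 7 and both libraries left out 68, with 21 to 66 when 1 library was left out. Against SCA1low alone (27 calls, 18 higher and 9 lower), RLE scaling gave 11 higher and 23 lower, the LY6D- libraries alone 9 and 23, library size scaling gave 51 (42 higher and 9 lower), no filter 59 (29 and 30), DESeq2 1071 (459 and 612), limma-trend 12 (10 and 2) and both left out 90 (56 and 34), with 22 to 74 when 1 was left out. For the difference between LY6D states (7 calls), RLE scaling gave 2, no filter 20, DESeq2 601, limma-trend 1 and both left out 35, with 9 to 26 when 1 was left out. For calls on both sides (2), RLE scaling, library size scaling, the LY6D- libraries alone and limma-trend gave 1 each, no filter 5, DESeq2 224 and both left out 7, with 2 to 10 when 1 was left out. The cause of these shifts was not tested.

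The sample descriptions give all replicates 1 one prefix and all replicates 2 another, whose meaning is not given in the sources used here, so whether the numbers pair the libraries is not known. Deviations of same-numbered libraries correlated from -0.28 to 0.209 over 15 pairs of populations, 2 of them above 0.1. With the replicate block the counts were 29 against the mean, 44 against SCA1low, 11 for the difference between LY6D states and 4 on both sides. Reversed signs were found for Spink1 (-0.136) and Pbsn (-0.725) with the single reference group, and with 1 library left out for Foxi1 (-3.32 to 10.4) and Cxcl14 (-0.343 to 4.76), each lowest without LY6D- SCA1int replicate 1, and for Plk1 (-0.127 to 6.07), lowest without replicate 2; for these 3 genes the left-out library held most SCA1int reads. Without LY6D- SCA1int replicate 1 the difference of Atp6v1b1 was 0.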

Other observations

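Cell cycle genes had 0 calls among 17 tested in edgeR's contrast of LY6D- SCA1int with the mean of both ends. Against 8.43% of all tested genes, 3 of the 17 were higher at an unadjusted p below 0.05. DESeq2 called 1 of them, Mcm6 (adjusted p = 0.0239). Mcm6, a subunit of the replication helicase, was read in both SCA1int libraries, at 33.6 and 89.4 CPM against 4.38 and 0.424 in SCA1high and 1.08 and 6.58 in SCA1low (log2 fold change 4.34 ± 1.58, adjusted p = 0.333). Plk1, a mitotic kinase gene, was read in 1 of them, at 0.36 and 25.6 CPM, and Cdc20, a mitotic activator gene, in the other, at 21.8 and 0.172 CPM. Cxcl14, a chemokine gene of epithelia, stood at 63.2 and 1.72 CPM in SCA1int, and DESeq2 called it higher (adjusted p = 0.0357). Lcn2, the lipocalin gene of proximal epithelium, was read at 1.39 and 16.4 CPM in LY6D- SCA1int and at 43.9 and 38.5 in LY6D+ SCA1int.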
